A study of Mus musculus with 12 samples.

Results

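The Vmn1r genes encode the type 1 vomeronasal receptors, and they were taken as the RefSeq protein-coding genes of mouse whose symbol is Vmn1r followed by a number. The rule gave 230 genes of 21900 protein-coding genes in the RefSeq table (GRCm38.p6, which is mm10). Of these, 228 genes, of 21775 protein-coding genes treated in the same way, could be placed among the mapped summits. The other 2, Vmn1r186 and Vmn1r187, carry table positions on chromosome 7 that lie before the first summit of that chromosome in any list, and they have no value here. They were chosen as a family that should be silent outside the vomeronasal organ, so that summits beside them estimate how many summits a list holds at closed genes.

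Type 1 vomeronasal receptors are G protein-coupled receptors of sensory neurons in the vomeronasal organ of the nose, where they detect pheromones and other chemical cues. Their coding sequence usually lies in a single exon, and the genes form large arrays of close copies that arose by duplication. Each vomeronasal neuron expresses mainly a single receptor gene, signals through the G protein subunit Gnai2 and the channel Trpc2, and keeps the other receptor genes in closed chromatin.

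Accessibility was measured with ATAC-seq, where adapters are inserted by a transposase wherever DNA is open, in fresh lumbar dorsal root ganglia (L4-L6), which hold the cell bodies of the sensory neurons of the sciatic nerve together with glia, immune and vascular cells. There were 12 libraries, 3 in each of 4 groups: wild-type (Silc1+/+) sham, wild-type injured, Silc1-/- sham and Silc1-/- injured. Silc1 is a long noncoding RNA gene, the injury was a crush of the sciatic nerve at the thigh, and several ganglia were pooled for a library. The labels name purchased C57black6 Ola HSD males and other strains bred in house. The type of Silc1 allele, the age of the mice and the time after injury were not stated there.

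Every group had 1 summit list here: in wild type 27279 summits after sham operation and 43841 after injury, and in Silc1-/- mice 48332 and 35815. Where 4 values follow each other below, they stand in that order. A summit is the position of highest signal within a peak called by the authors. With 1 list per group there is no spread between animals and no test between groups, and read depth is unknown. All intervals are 95% intervals (exact Poisson for counts, exact binomial for ratios of counts, Wilson for shares) and cover counting error only. Of all protein-coding genes 79.6% had a summit inside or within 10 kb in at least 1 list. The 13 sensory neuron markers, among them Isl1 and Scn10a, each had one, as did 3 of 5 markers of skeletal muscle, a tissue outside the ganglion.

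The region upstream of the gene start shows how Vmn1r genes differ in sequence from a gene whose start held a summit in every list. Shown are 250 bases before the RefSeq gene start (GRCm38.p6, 5′ to 3′ on the gene's strand), in lower case with each CG dinucleotide in capitals. Vmn1r48 (chr6:90036842-90037091, minus strand) lies beside the highest-scoring summits near any Vmn1r gene. Vmn1r204 (chr13:22555951-22556200, plus strand) has a weaker summit of every list 6270 bases from its window, and Vmn1r139 (chr7:22096617-22096866, plus strand) belongs to the large array of near-identical copies on chromosome 7. Hprt (chrX:52987828-52988077, plus strand), the purine salvage enzyme used as a housekeeping gene, held 4 summits, 1 of each list, inside its promoter window and is printed for contrast.
Vmn1r48: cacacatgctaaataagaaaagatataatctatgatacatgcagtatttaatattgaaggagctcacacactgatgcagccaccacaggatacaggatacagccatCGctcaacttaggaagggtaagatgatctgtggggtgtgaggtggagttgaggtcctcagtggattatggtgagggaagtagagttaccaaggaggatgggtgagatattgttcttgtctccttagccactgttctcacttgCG
Vmn1r204: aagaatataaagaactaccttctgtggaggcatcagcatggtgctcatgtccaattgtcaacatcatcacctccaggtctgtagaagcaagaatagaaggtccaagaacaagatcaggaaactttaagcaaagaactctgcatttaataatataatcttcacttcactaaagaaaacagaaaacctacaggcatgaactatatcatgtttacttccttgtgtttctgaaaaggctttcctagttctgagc
Vmn1r139: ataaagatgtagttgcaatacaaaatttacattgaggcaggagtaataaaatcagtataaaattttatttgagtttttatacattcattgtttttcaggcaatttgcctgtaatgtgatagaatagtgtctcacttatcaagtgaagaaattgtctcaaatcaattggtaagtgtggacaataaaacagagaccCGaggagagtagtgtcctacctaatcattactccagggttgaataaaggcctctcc
Hprt: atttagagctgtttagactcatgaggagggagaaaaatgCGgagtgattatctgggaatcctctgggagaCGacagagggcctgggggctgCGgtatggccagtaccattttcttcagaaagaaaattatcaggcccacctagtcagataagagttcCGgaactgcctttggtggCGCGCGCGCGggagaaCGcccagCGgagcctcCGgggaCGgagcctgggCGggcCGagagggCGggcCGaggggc
The 250 bases before Hprt hold 17 CG dinucleotides, against 2 before Vmn1r48, 0 before Vmn1r204 and 1 before Vmn1r139. None of these 3 Vmn1r windows held a summit.

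RefSeq promoter windows, which run from 250 bases before to 50 bases after the start of a reference transcript, were available for 205 Vmn1r genes. Of these 205 windows 0 held a summit of any list, which allows a share of up to 1.46% by the limit of 3 counts and 1.84% by the Wilson interval. In 197 genes the window lies at the outer start of the gene span used for all other counts, and in 8 it lies elsewhere. A window of the same size at the outer start held a summit in 1 gene, Vmn1r4. Its span begins 32599 bases before the transcript start on which its RefSeq window is set. Among 21058 windows of other protein-coding genes, 47.0% held one. The Vmn1r windows had a median of 1 CG dinucleotide (range 0 to 6), and 44 of them had none (21.5%), whereas the other windows had a median of 13. Windows of other genes with at most 6 CG dinucleotides held a summit in 513 of 7385 cases (6.95%, interval 6.39% to 7.55%). Windows poor in CG were thus also mostly without a summit but not entirely. This set was capped and not matched to the Vmn1r windows. Its median was 3 CG dinucleotides against 1, and its median share of G and C was 46.3% against 36%. The other chemosensory families were near 0 as well, with 1 of 944 olfactory receptor windows and 1 of 117 Vmn2r windows. By contrast, 18 of 21 windows of housekeeping genes held a summit.

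Few Vmn1r genes had a summit inside the gene or within 10 kb of either end. In the wild-type sham list 15 genes did (6.58%), against 65.8% of all protein-coding genes. The wild-type injured list held one at 20 genes (8.77%), against 73.7%. For Silc1-/- sham the number was 17 genes (7.46%), against 74.0%, and for Silc1-/- injured 24 genes (10.5%), against 68.8%. In each list the share of Vmn1r genes was thus far under that of protein-coding genes, and the 4 Vmn1r shares lay close together.

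Over the 4 lists, 28 Vmn1r genes (12.3%, interval 8.63% to 17.2%) had a summit in any list, against 79.6% of protein-coding genes, and 200 genes had none. In every list a summit was found at 14 genes (6.14%), against 61.2%: Vmn1r2, Vmn1r3, Vmn1r4, Vmn1r41, Vmn1r48, Vmn1r53, Vmn1r56, Vmn1r65, Vmn1r167, Vmn1r204, Vmn1r214, Vmn1r221, Vmn1r222 and Vmn1r238. Vmn1r30 and Vmn1r194 had one in 3 lists, Vmn1r58 and Vmn1r175 in 2 lists, and 10 genes in a single list. Most summits over all lists lay at Vmn1r2, with 17, followed by Vmn1r3 with 9, Vmn1r167 with 8, and Vmn1r65 and Vmn1r238 with 6 each. Neighbouring genes can share a summit in these counts per gene.

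The union of the 228 genes with 10 kb on either side covers 4.69 Mb in 196 separate stretches, of which 170 held no summit. Counting each summit once, this territory held 19 summits after sham operation and 26 after injury in wild type, and 20 and 31 in Silc1-/- mice, 96 in all. That is 4.05, 5.54, 4.26 and 6.61 summits per Mb, or 8.33, 11.4, 8.77 and 13.6 per 100 genes. The Silc1-/- sham list was the longest of the 4 but held nearly the fewest of these summits, so the counts did not follow the length of the lists.

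To set aside list length, the density was divided by that of the same list over the placed chromosomes. The relative density at Vmn1r genes was 0.397 (0.239 to 0.620) for sham and 0.338 (0.220 to 0.495) for injury in wild type, and 0.235 (0.144 to 0.363) and 0.493 (0.335 to 0.700) in Silc1-/- mice. All 4 intervals lay below 1. All protein-coding genes pooled stood above 1, at 1.54, 1.51, 1.47 and 1.45. Sequence over 10 kb from any protein-coding or long noncoding RNA gene stood at 0.442, 0.452, 0.485 and 0.536, which lies within the Vmn1r interval in 3 lists and above it in Silc1-/- sham. Without the 3 genes of chromosomes 4 and 18 described further on, the Vmn1r values were 0.275 (0.146 to 0.470), 0.263 (0.160 to 0.406), 0.179 (0.0999 to 0.295) and 0.402 (0.260 to 0.594), and sequence far from genes then lay above the interval in 2 lists, wild-type injured and Silc1-/- sham. Without chromosome 7 instead, they were 0.678 (0.379 to 1.12), 0.449 (0.2565 to 0.729), 0.381 (0.2135 to 0.629) and 0.688 (0.420 to 1.06). Sequence far from genes then lay within all 4 intervals, and under the Vmn1r value in wild-type sham and Silc1-/- injured. With all placed Vmn1r genes their density was thus at or under that of sequence far from genes, but this depended on chromosome 7. It was not 0 in any list.

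**Figure D1:**
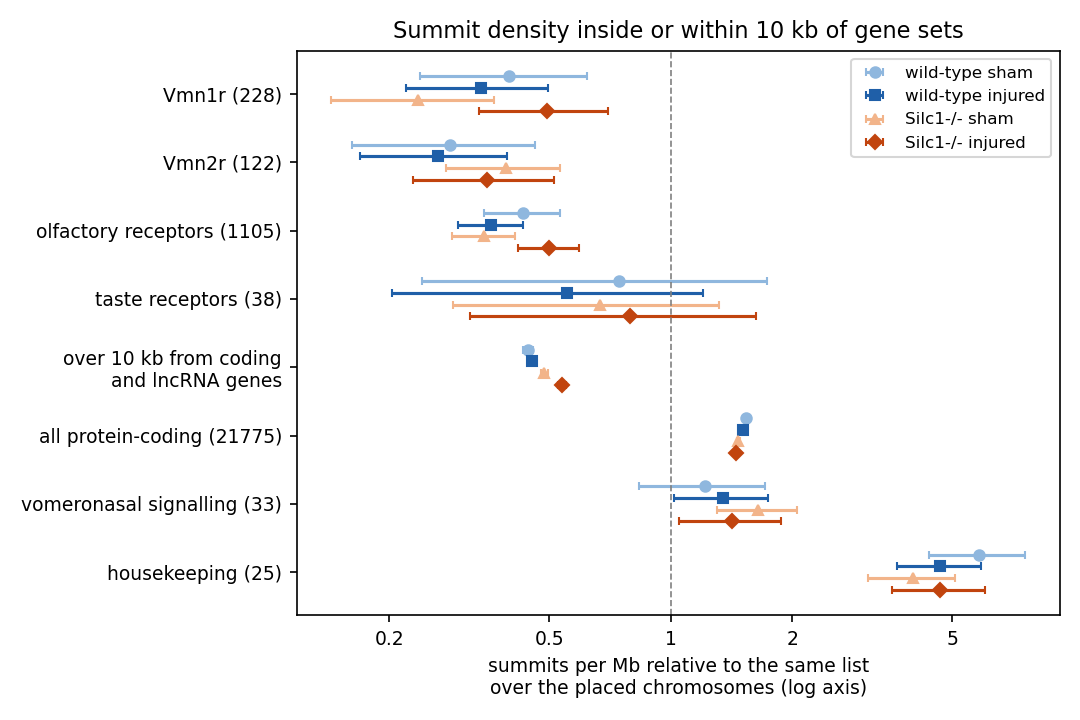
Summits per Mb inside or within 10 kb of each gene set, divided by the density of the same list over the placed chromosomes (log axis); points are lists, bars are 95% Poisson intervals, numbers in brackets are genes. The 4 Vmn1r values lie between 0.235 and 0.493, beside those of the other vomeronasal and the olfactory receptors, and the housekeeping genes lie at 3.99 to 5.82.

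Other receptor families of the nose had like densities. The 122 genes of the second vomeronasal family, Vmn2r, stood at 0.284, 0.264, 0.389 and 0.351, and the 1105 olfactory receptor genes at 0.430, 0.359, 0.345 and 0.500. The 38 taste receptor genes lay higher, at 0.742, 0.553, 0.668 and 0.791, but on 5 to 8 summits a list. The 15 trace amine receptor genes held 1, 1, 0 and 1 summits. The differences between families were not tested.

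Genes that act downstream of the receptors were a mixed group. Of 33 genes listed for vomeronasal signalling and development, 25 had a summit in any list (75.8%, against 79.6% of protein-coding genes), 14 in every list (42.4%, against 61.2%) and 8 in none, so the list as a whole was near or under the background. The G protein genes were among those with most summits: Gnao1 held 4, 7, 9 and 6 and Gnai2 4, 6, 5 and 3. Ebf1, a transcription factor of olfactory and other lineages, held 2, 3, 17 and 7. Trpc2, the transduction channel of vomeronasal neurons, held 0, 0, 0 and 1, and Omp, the olfactory marker protein, 1, 1, 1 and 0. The formyl peptide receptor genes Fpr-rs3, Fpr-rs4, Fpr-rs6 and Fpr-rs7, which are also vomeronasal receptors, held 0 in every list. The counts of the signalling list thus came from G protein, transcription factor and other genes, and not from its receptor genes. These counts were not scaled to gene length, and Gnao1 and Ebf1 are far longer than Trpc2 and the Fpr-rs genes. They thus do not show a difference between kinds of gene.

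As a background estimate, the Vmn1r density can be laid over the territory of other gene lists. At that density, the 0.928 Mb at 25 housekeeping genes would hold 3.76, 5.14, 3.95 and 6.13 summits, and 55, 71, 67 and 58 were found. The 1.43 Mb at the 13 sensory neuron markers would hold 5.81, 7.94, 6.11 and 9.47, and 19, 25, 51 and 22 were found. For the signalling list, with 2.58 Mb, the figures were 10.44, 14.3, 11.0 and 17.0 against 32, 57, 77 and 49. Each of these lists stood above the estimate in each summit list. All protein-coding genes pooled did so too, with 5206, 7124, 5480 and 8494 against 20200, 31816, 34279 and 24942 found. Standing above the estimate thus did not set these lists apart from protein-coding genes in general. The estimate rests on 19 to 31 summits and on territory that differs from these genes in CG content and in the number of near-identical copies.

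Close to the genes the summits were fewer still. Inside the gene bodies, 0.354 Mb in all with a median gene length of 924 bases, the lists held 0, 1, 1 and 1 summits, where the density of each list would give 3.61, 5.82, 6.42 and 4.75. All 3 of these lie in Vmn1r4, where it overlaps Nt5c3, a nucleotidase gene. Within 2 kb of a gene each list held 2 summits, where its own density would give 12.9, 20.8, 22.9 and 17.0. In each list these were the same 2 places, the outer start of Vmn1r4 and the flank of Vmn1r48. From 40 to 50 kb out the relative density was 1.93, 1.06, 1.15 and 1.12, on 13 to 18 summits a list. Only the wild-type sham interval (1.125 to 3.09) lay above 1, and the others reached down to 0.592, 0.682 and 0.598. At 30 to 40 kb all 4 values were still below 1, at 0.508 to 0.830.

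**Figure D2:**
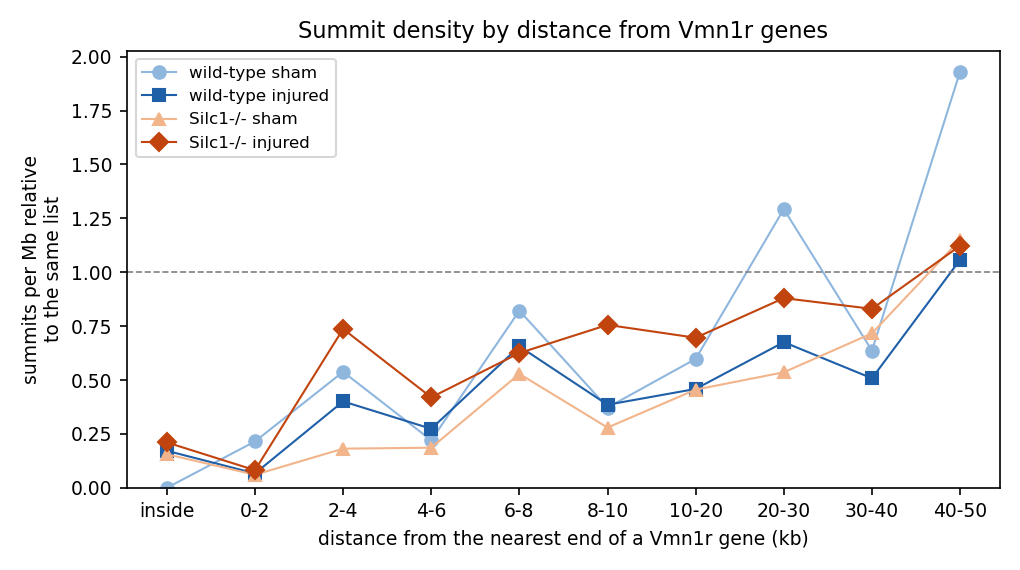
Summit density by distance from the nearest end of a Vmn1r gene (kb), relative to the density of the same list over the placed chromosomes; each line is a list, and the dashed line marks equal density. Between 0 and 2 kb the values are 0.0606 to 0.215, and at 40 to 50 kb all 4 lie above 1.

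When summits of any list within 1 kb of the next were joined, the 96 summits fell into 34 sites, some of which reach past the 10 kb limit. Of these, 14 sites (41.2%, interval 26.4% to 57.8%) held a summit of all 4 lists, against 26.0% of 62349 sites over the genome. Joined at 200 bp there were 51 loci, of which 7 (13.7%, interval 6.81% to 25.7%) were in all 4 lists, against 18.3% of 78381 loci. The percentage of shared places near Vmn1r genes was thus above the genome's at one joining distance and below it at the other. The genome's value lay just below the interval at 1 kb and inside it at 200 bp.

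Scores split the sites joined at 1 kb. The deposited score is −log10 of a p-value or a q-value (the sources do not say which), and it rises with depth. At the 14 sites in all 4 lists the highest score had a median of 26.0 and reached 103, whereas the 13 sites of a single list scored between 1.35 and 5.26. Sites of 2 lists had a median of 4.39 and sites of 3 lists of 8.65. The highest score is taken over more lists at shared sites, and such scores were not computed over the genome. Joined at 200 bp the split was not clean. Loci of a single list then scored 1.35 to 103 (median 4.39), and loci of all 4 lists 8.73 to 63.0 (median 15.8). Sites of a single list made up 38.2% here (interval 23.9% to 55.0%) and 44.8% over the genome. Of the 13 near Vmn1r genes, 1 came from wild-type sham, 3 from wild-type injured, 3 from Silc1-/- sham and 6 from Silc1-/- injured. Among summits near Vmn1r genes, a score of at least 10 was reached by 7 of 19, 10 of 26, 10 of 20 and 11 of 31. In the whole lists 33.9%, 30.4%, 23.0% and 22.7% reached it. Only the interval of Silc1-/- sham (29.9% to 70.1%) lay above its list. A score of at least 5 was reached by 45.2% in Silc1-/- injured, against 49.1% of that list, and each other list had a share above its own. Many of the high scores lie at Vmn1r2, Vmn1r3 and Vmn1r238, and shares without these genes were not computed.

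**Figure D3:**
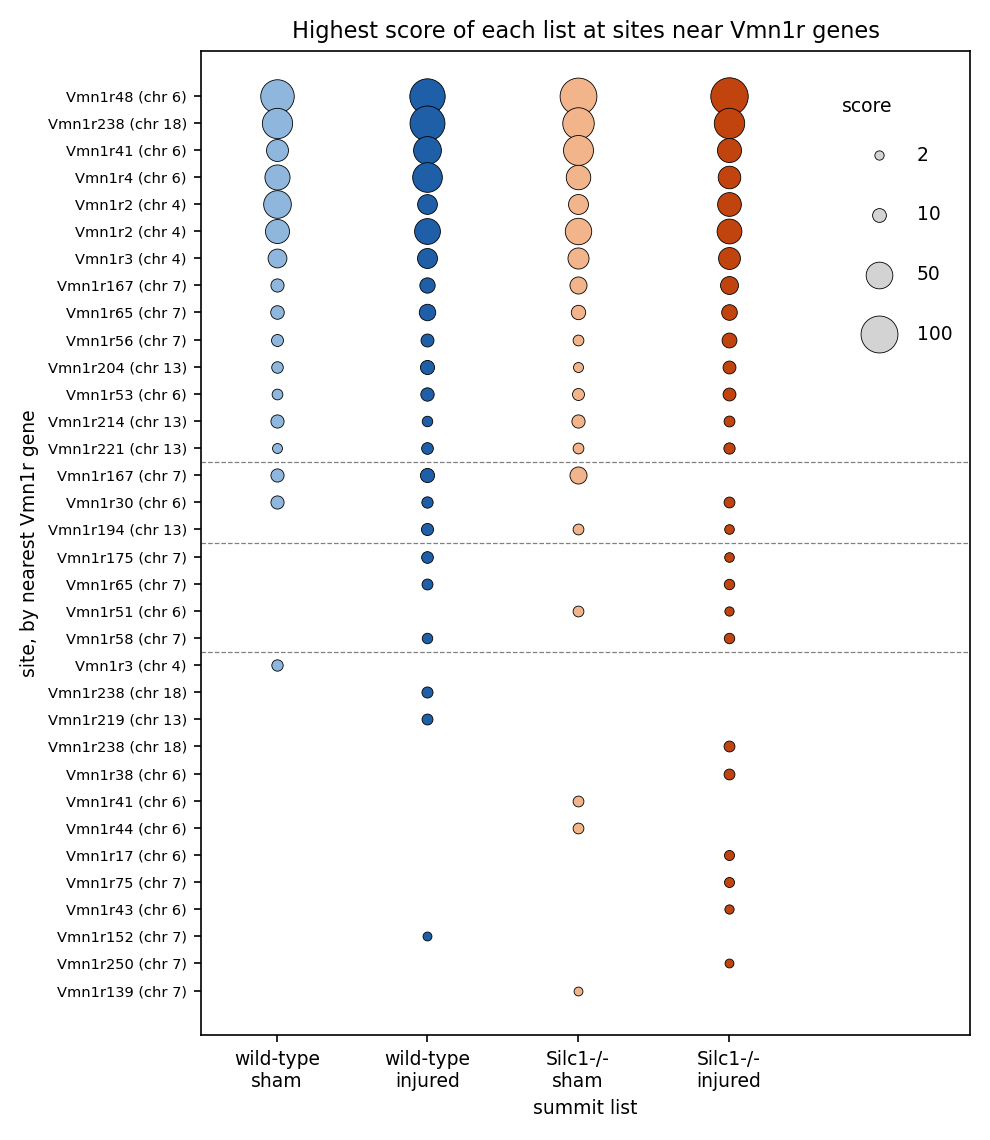
The 34 sites near Vmn1r genes (1 line a site, named by the nearest Vmn1r gene) and the highest score of each list there, shown by the size of the circle; dashed lines separate sites in 4, 3, 2 and 1 lists. The large circles are in the upper block, where all 4 lists hold a summit, and the 13 sites of a single list score at most 5.26.

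The strongest site lay beside Vmn1r48 on chromosome 6, between 90034533 and 90034914, at 1019 to 1400 bases from the gene. Its score was 81.6 and 91.5 in the wild-type lists and 99.2 and 103 in the Silc1-/- lists, sham first. It was among the top 0.865%, 0.675%, 0.453% and 0.628% of summits of these lists, so all 4 placed it near the top. It lies downstream of the gene, 1878 bases or more from the promoter window. The nearest coding or long noncoding RNA gene outside the family rule, the vomeronasal receptor gene V1ra8, is 167903 bases or more away.

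Vmn1r4 held the only summits inside a Vmn1r gene span or at its outer start, far from the gene's RefSeq promoter window. The 4 summits lie within 79 bases of each other on chromosome 6, between 56923895 and 56923974, with scores of 43.8, 63.0, 41.4 and 34.5. This stretch is also inside Nt5c3, so which gene it belongs to cannot be told apart by position. Vmn1r41, elsewhere on that chromosome, had a site 9007 to 9680 bases away with scores of 32.2, 54.8, 64.4 and 39.8. All 3 of these sites of chromosome 6 were high in every list.

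Vmn1r2 and Vmn1r3 on chromosome 4 and Vmn1r238 on chromosome 18 stand alone, close to the first mapped sequence of their chromosome. These 3 genes make up 1.15% of the territory and held 23 of the 96 summits (24.0%). In the 4 lists they held 6, 6, 5 and 6, where the density of each list would give 0.552, 0.889, 0.981 and 0.725. The Vmn1r238 site scored 65.8, 89.1, 71.6 and 66.5, and at Vmn1r2 the higher-scoring site in most lists scored 39.7, 46.5, 49.0 and 42.6. A second Vmn1r2 site scored 54.1, 25.3, 25.8 and 38.7, and the Vmn1r3 site 22.6, 25.9, 29.4 and 32.0. These sites lie 112 to 129 kb from the first summit of the chromosome. How reads that match several places were treated is not given in the sources used here, and its part in these values was not tested.

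The remaining sites of all 4 lists were weaker. A site near Vmn1r167 scored 8.65, 13.4, 17.7 and 19.95, with its wild-type injured summit past the 10 kb limit. Vmn1r65 scored 9.47, 16.2, 11.2 and 14.2, Vmn1r56 6.33, 8.23, 4.29 and 12.3, and Vmn1r204 5.60, 10.7, 3.01 and 8.10. Vmn1r53 scored 4.20, 9.05, 6.405 and 8.10. At Vmn1r214 the scores were 8.65, 3.82, 8.73 and 4.39, and at Vmn1r221 the lowest was 2.92. The order of the lists differed from site to site.

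Summits were spread unevenly over the arrays. Genes over 1 Mb apart were assigned to separate clusters, which gave 13. The 14 genes of chromosome 17, Vmn1r224 to Vmn1r237, held 0 summits in every list over 0.295 Mb, where list density would give 3.01 to 5.35. The 24 genes from Vmn1r66 to Vmn1r89 on chromosome 7 held 2 summits, both of the Silc1-/- injured list. The 15 genes from Vmn1r40 to Vmn1r54 held 17 summits, as did the 35 genes of chromosome 13, and the 11 from Vmn1r55 to Vmn1r65 held 14.

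The largest array, the 86 genes from Vmn1r91 to Vmn1r183 on chromosome 7, covers 1.71 Mb, or 36.3% of the territory, and held 14 summits, or 14.6% of them. Only 5 of its genes had any. Near Vmn1r167 lay 8 of the summits and near Vmn1r175 another 3, and the others were single summits near Vmn1r139, Vmn1r250 and Vmn1r152 with scores of 1.35, 1.38 and 1.45, close to the smallest score of all lists, 1.30. Of its 83 promoter windows, 75 matched that of another Vmn1r gene over at least 90% of their letters. The window of Vmn1r139 printed above is shared letter for letter by Vmn1r112 and Vmn1r157.

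**Figure D4:**
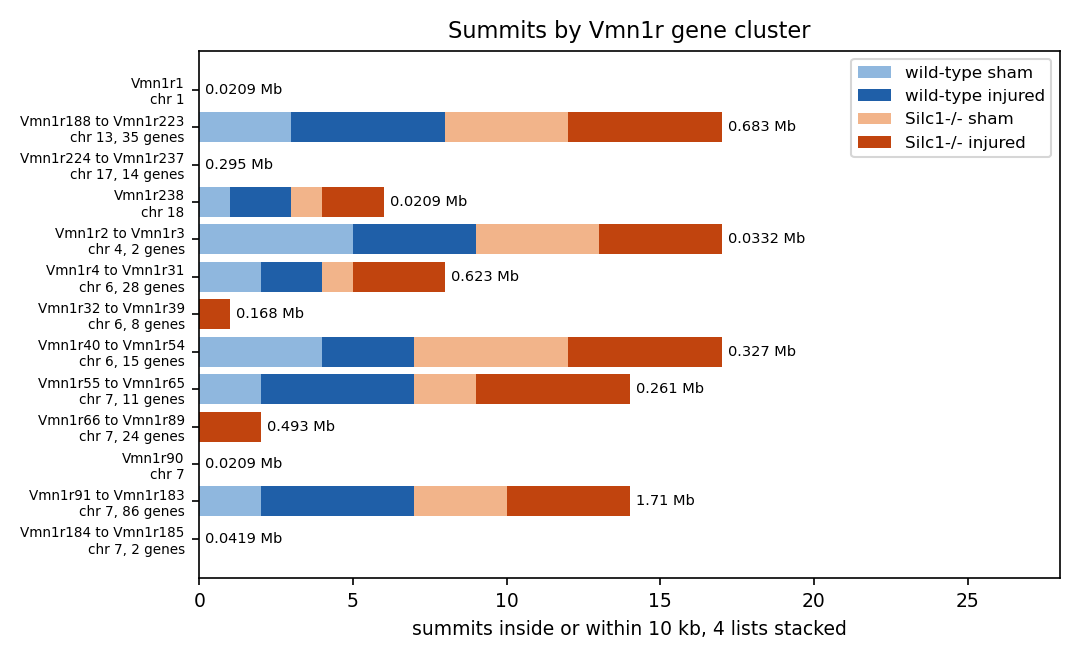
Summits inside or within 10 kb of the genes of each Vmn1r cluster, the 4 lists stacked, with the length of the territory in Mb beside each bar. Vmn1r2 and Vmn1r3 hold 17 summits on 0.0332 Mb, as many as the 35 genes of chromosome 13 on 0.683 Mb, and the 14 genes of chromosome 17 hold 0.

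Among the 205 Vmn1r genes with a promoter window, pooled over all arrays, those with and without a near-identical window had a summit about equally often. Genes without a window, among them Vmn1r2, Vmn1r3 and Vmn1r238, are not counted here. The near-identical windows include 75 of the large chromosome 7 array, where only 5 of 86 genes had a summit. Of 100 genes whose promoter window matched another Vmn1r window at 90% or more, 11 had a summit (11.0%, interval 6.25% to 18.6%). Of 105 genes under 90%, 11 had one (10.5%, interval 5.95% to 17.8%). The near-identical genes with a summit were Vmn1r139, Vmn1r152, Vmn1r175 and Vmn1r250 in the large array. Outside it they were Vmn1r17, Vmn1r30, Vmn1r48, Vmn1r51, Vmn1r58, Vmn1r221 and Vmn1r222. Most thus lay outside the array that holds 75 of the 100 windows, so the pooled share mixes unlike parts. Shares inside and outside that array were not computed. Among the 54 genes whose 300-base window is identical to another's, 52 of them on chromosome 7, 4 had a summit. The match concerns only the promoter window, not the 10 kb on either side.

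Injury and genotype were compared as ratios of Vmn1r summits scaled to list length, with the lists shared between ratios. Injured over sham was 0.850 (0.452 to 1.62) in wild type and 2.10 (1.16 to 3.88) in Silc1-/-. Silc1-/- over wild type was 0.593 (0.300 to 1.17) in sham and 1.46 (0.840 to 2.56) in injured. Only the interval of the Silc1-/- injury ratio excluded 1, and only in the lists as deposited: with the lists cut to equal length it was 1.47 (0.729 to 3.05), and with scores of at least 5 it was 1.38 (0.603 to 3.19). For olfactory receptor genes the same ratio was 1.45 (1.13 to 1.87), for Vmn2r genes 0.901 (0.527 to 1.52), and far from genes 1.11 (1.07 to 1.14). Joined at 200 bp, summits in loci of a single list were 2 of 19, 6 of 26, 6 of 20 and 13 of 31 at Vmn1r genes (10.5%, 23.1%, 30.0% and 41.9%). Over the placed chromosomes they were 12.8%, 28.7%, 34.5% and 23.6% of each list. The 13 include the Vmn1r48 summit of score 103, whose site holds all 4 lists when joined at 1 kb. Only 1, 4, 3 and 7 of the Vmn1r summits had no summit of another list within 1 kb. The median score at Vmn1r genes was 8.65, 7.45, 9.99 and 4.39, against 6.33, 5.72, 4.97 and 4.77 in the whole lists, so Silc1-/- injured was lowest in both.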

How the data were processed

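Chromatin accessibility was measured by ATAC-seq in 12 libraries, 3 per group by the genotype and treatment labels. Per the submitters' processing notes, Bowtie2, MACS2 and mm10 were used. Versions, read filters, the treatment of reads that match several places and any pooling of libraries were not given in the sources used here. The deposited lists give 1-base summits and a score that the authors' caller wrote as −log10 of a p-value or q-value. Read counts are absent from these lists, so depth and its precision are unknown.

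The Vmn1r genes, the gene lists and the tests were chosen with earlier results of these data known. Spans came from RefSeq (GRCm38.p6). Density was taken over chromosomes 1-19, X and Y between their outermost summits (2660 Mb), since no chromosome lengths were used. Genes placed before the first summit of their chromosome, or unplaced, were left out (125 protein-coding genes, 2 of them Vmn1r). Places were named by a rule: the 10 loci with the highest scores, loci of all 4 lists, the 10 genes with most summits and the nearest genes. Chosen after seeing the data were the handling of the unplaced genes and of the chromosome spans, the 1 Mb cluster gap, the 1 kb sites, the CG and 90% identity counts, the windows at outer gene starts, the sequences printed, the runs without chromosomes 4 and 18, and any other gene named. Identity was computed by edit distance with edlib. The steps were tested on simulated data. Python 3.11.15, numpy 2.4.6, pandas 2.3.3, scipy 1.17.1 and matplotlib 3.10.9 were used.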

Additional observations from a re-analysis of the deposited data

Results flagged for a closer look

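The injured over sham ratio of Vmn1r summits, scaled to list length, drew attention because it lay on different sides of 1 in the 2 genotypes: 0.850 (0.452 to 1.62) in wild type and 2.10 (1.16 to 3.88) in Silc1-/-. Each group has 1 list, so the difference between the genotypes was not tested, and the intervals overlap. With lists of equal length both ratios were above 1, at 1.10 and 1.47.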

How the results depend on the processing

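No paired analysis was possible because each group has 1 list, and for the same reason no replicate could be left out. Of 78 alternative values, 60 stayed within the counting interval of the reported value and 18 moved past it. All 60 alternative values of the relative density at Vmn1r genes were below 1, from 0 to 0.773, but some of their intervals reached past 1. Inside the genes only, the relative density was 0 for wild-type sham, and after injury 0.172 (wild type) and 0.211 (Silc1-/-). Within 1 kb it was 0.121, 0.0752, 0.0681 and 0.0921. Within 50 kb it was 0.713 in wild-type sham and 0.452 in Silc1-/- sham. With scores of at least 10 it was 0.514 in Silc1-/- sham and 0.773 (0.386 to 1.38) in Silc1-/- injured. Without chromosome 7 it was 0.678 (0.379 to 1.12) in wild-type sham and 0.381 in Silc1-/- sham. In Silc1-/- injured it was then 0.688 (0.420 to 1.06). Intervals inside the genes also reached past 1 in wild-type sham and Silc1-/- injured. The percent of Vmn1r loci in all 4 lists, 13.7% when joined at 200 bp, was 4.62% at 50 bp, 31.0% at 500 bp and 41.2% at 1000 bp; inside the genes and within 1 kb it was 100%, on 1 locus. The share rose with the joining distance. Unknown depth limits any reading of summits that are absent from a list.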
